A study of Macaca mulatta with 15 samples.

Results

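Lysosome and sterol trafficking genes were followed in 15 RNA-seq libraries made from blood T cell subsets of 2 healthy rhesus macaques. The list held 36 genes, taken by their gene symbol, and 35 of them had a row among the 34884 rows of the count table. GUSB, beta-glucuronidase, had no row under that symbol. All 35 genes passed the filter on low counts. The genes were picked by symbol and known function, with earlier results of these data known.

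After treatment the animals were RhM22 and RhDBCb, each given 2-hydroxypropyl-beta-cyclodextrin as a 15% (w/w) solution of Kleptose HBP under the skin, at 1 ml per kg per day for up to 120 days. Before treatment the same 2 animals were sampled untreated, so every comparison of after with before rests on 2 animals. The labels give neither the day of the after draw nor the animals' age, and name no genetic alteration. Each library held CD8 memory, CD8 naive, CD4 memory or CD4 naive cells. There were 4 libraries of CD8 memory, 3 of CD8 naive, 4 of CD4 memory and 4 of CD4 naive cells. The RhDBCb CD8 naive cells after treatment were not analysed here. The libraries of 1 animal at 1 time are called a draw, which gives 4 draws.

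Cholesterol that enters a cell with lipoproteins is set free in the lysosome, where acid lipase splits its esters. The soluble carrier NPC2 then hands it to NPC1 in the lysosomal membrane, from which it leaves for other membranes. Cyclodextrins bind cholesterol, and this one is known for releasing the sterol that piles up in lysosomes when NPC1 or NPC2 is lost. The lysosome around this route is kept acid by a proton pump, is lined by heavily glycosylated membrane proteins and holds proteases, glycosidases and lipid hydrolases. Many of their genes are targets of the transcription factor TFEB. In cytotoxic T cells, lysosome-related granules also store the proteins that kill target cells.

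Total counts ranged from 44414963 to 71787211 per library, and the 35 genes took 0.319% to 0.496% of them. CD4 RNA reached at most 1.68 CPM (counts scaled to a common library total) in CD8 libraries, against 207 to 549 CPM in CD4 libraries. CD8A lay between 665 and 861 CPM in CD8 libraries and reached at most 3.93 CPM in CD4 libraries. The summed level of 6 memory markers was 4707 to 8754 CPM in CD8 memory against 1436 to 1934 CPM in CD8 naive libraries. It was 5669 to 7090 CPM in CD4 memory against 2275 to 3052 CPM in CD4 naive libraries. Those of 4 naive markers did not overlap between the CD8 subsets but overlapped between CD4 memory (7242 to 10935 CPM) and CD4 naive (8132 to 20359 CPM). The deposited values per length were scaled by the whole gene span, introns included, so levels were not compared between genes. Below, the values of a subset stand in the order RhM22 after, RhM22 before, RhDBCb after and RhDBCb before, and CD8 naive lacks RhDBCb after.

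**Figure D1:**
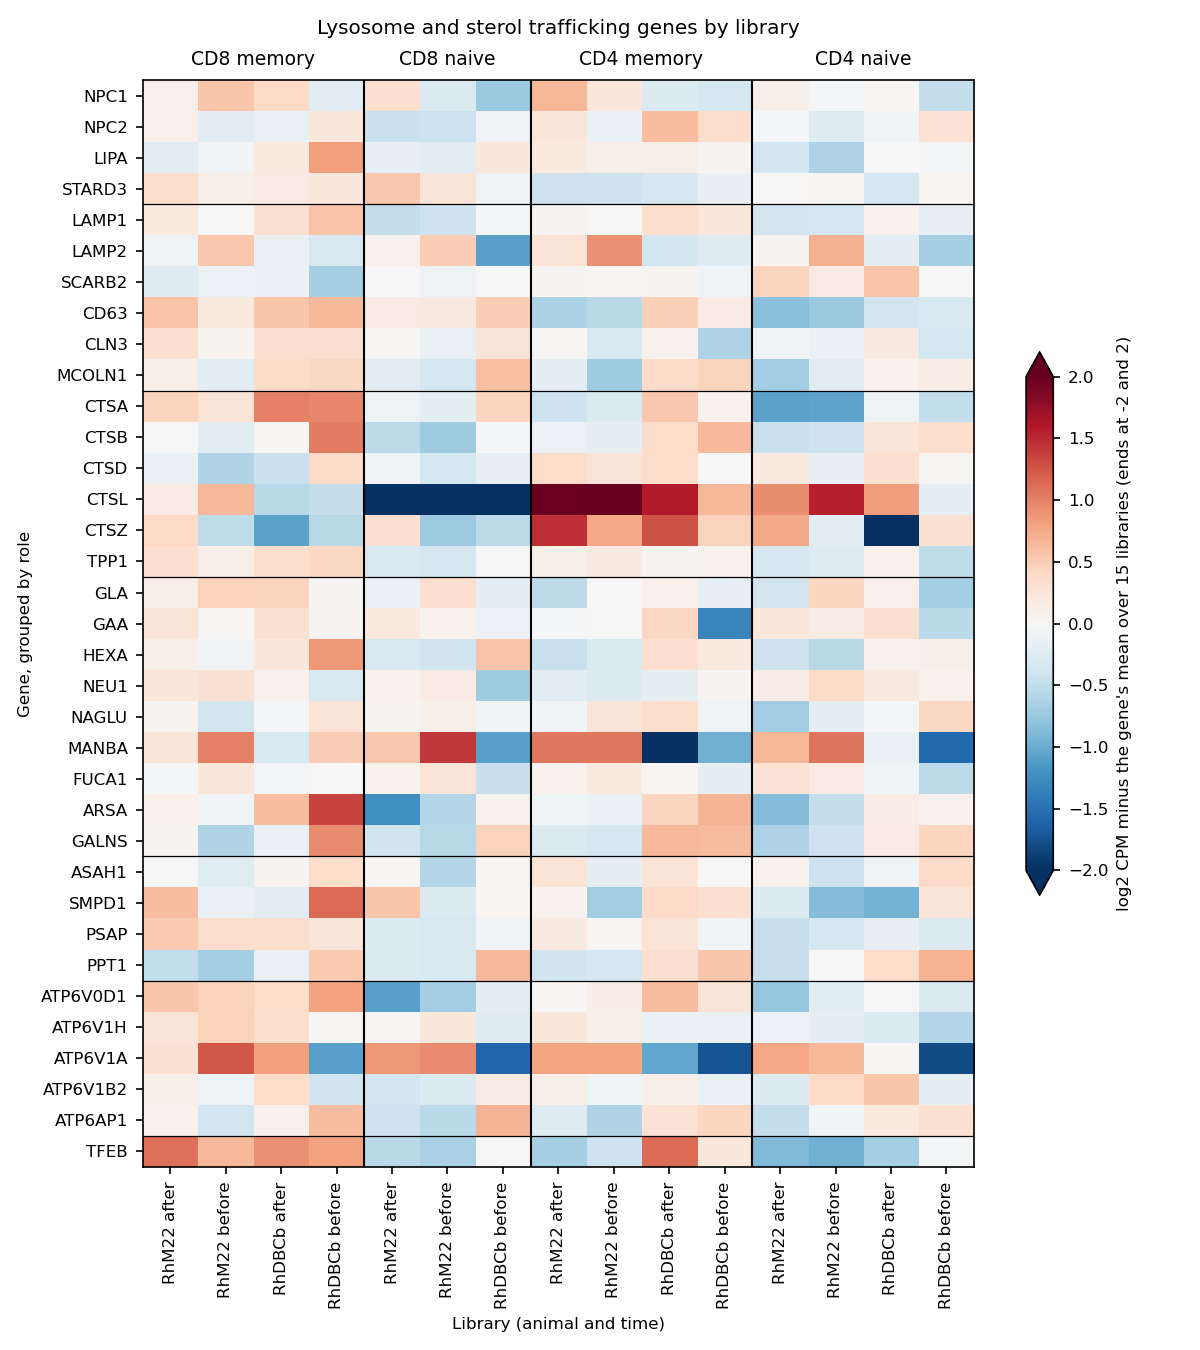
Each row is 1 of 35 genes, grouped by role, and each column 1 of 15 libraries, grouped by T cell subset. Color gives log2 CPM minus the gene's mean over the libraries, and ends at -2 and 2. The CD8 naive libraries stand out for low CTSL, and the RhDBCb before libraries for low ATP6V1A.

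The subset accounted for a median of 30.4% of the variance of a gene's log2 CPM over the 15 libraries among the 35 genes, against 28.7% among all 14814 genes tested. The animal accounted for 26.0%, against 17.2% among all genes, and the time of the draw for 2.28%, against 3.53%. These shares overlap, because the libraries are few and 1 is missing. CTSL (89.9%), PSAP (85.9%) and ATP6V0D1 (75.2%) had the largest shares by subset. PPT1 (75.8%), ATP6AP1 (73.3%) and GALNS (71.2%) had the largest by animal. GAA had the largest by time, at 28.8%.

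In CD8 cells, 9 of the 35 genes were higher in memory than in naive libraries and none was lower. They were 4 of 6 proteases (CTSL, CTSB, TPP1 and CTSA), ATP6V0D1 of the proton pump, TFEB, the sulfatase ARSA, the saposin precursor PSAP and the membrane protein LAMP1. Calls here and below rest on edgeR's quasi-likelihood test, here within draws, with Benjamini-Hochberg adjustment over all genes tested and a threshold of 0.05. The 9 genes are 25.7% of the 35, where 16.5% of all genes were called, 9.93% higher and 6.60% lower. Of the 35, 31 had a log2 fold change above 0, with a median of 0.23, against a median of 0.03 over all genes. With 2 animals, p measures the spread among these libraries only. Libraries hold bulk RNA, so more cells of a type and more RNA per cell cannot be told apart.

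CTSL encodes cathepsin L, a cysteine protease of the lysosome. It had 229.9, 321, 139 and 147 CPM in CD8 memory libraries, against 15.0, 31.3 and 20.4 CPM in CD8 naive libraries. Every memory library lay far above every naive library, and the log2 fold change was 3.22 (SE 0.29, adjusted p = 2.56e-05). CTSB, a cysteine protease of the same family, had 239.9, 206, 250.0 and 489 CPM in memory and 168, 149 and 238 CPM in naive libraries. The RhDBCb naive library reached into the memory range, while memory was above naive in each of the 3 draws with both (log2 fold change 0.59, SE 0.15, adjusted p = 0.0155). TPP1, which trims tripeptides from proteins, had 456, 395, 463 and 482 CPM in memory and 293, 285 and 357 CPM in naive libraries, with no overlap (log2 fold change 0.49, SE 0.14, adjusted p = 0.0338). CTSA, a carboxypeptidase that protects the sialidase NEU1, had 407, 362, 601 and 589 CPM in memory and 279, 263 and 404 CPM in naive libraries. These ranges overlapped across animals and not within them (log2 fold change 0.47, SE 0.12, adjusted p = 0.0148). The other proteases, the aspartic protease CTSD and the cysteine protease CTSZ, had log2 fold changes of 0.017 and 0.067 and did not pass.

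ATP6V0D1 is a subunit of the membrane sector of the proton pump. Its level was 172, 161, 149.9 and 204 CPM in CD8 memory and 55.1, 72.4 and 103 CPM in CD8 naive libraries. The lowest memory library lay above the highest naive library, and the log2 fold change was 1.15 (SE 0.18, adjusted p = 9.05e-04). None of the other 4 pump genes passed: ATP6V1H, ATP6V1A and ATP6V1B2 of the cytosolic sector had 0.28, 0.30 and 0.054, and the accessory protein ATP6AP1 0.14. TFEB had 19.2, 14.1, 17.0 and 15.7 CPM in memory libraries, against 6.21, 5.71 and 8.94 CPM in naive libraries. Memory and naive did not overlap (log2 fold change 1.17, SE 0.31, adjusted p = 0.0206).

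ARSA, which removes sulfate from sulfatides, had 15.1, 13.4, 21.7 and 36.1 CPM in CD8 memory and 6.05, 9.36 and 14.8 CPM in CD8 naive libraries. The RhDBCb naive library lay between the RhM22 memory libraries, and memory was higher within each draw (log2 fold change 1.01, SE 0.20, adjusted p = 0.00409). The other 8 glycosidases and sulfatases, GLA, GAA, HEXA, NEU1, NAGLU, MANBA, FUCA1 and GALNS, did not pass, with log2 fold changes from -0.075 (NAGLU) to 0.51 (MANBA). PSAP is cut into the saposins, which present lipids to hydrolases. It had 596, 529, 528 and 489 CPM in memory and 343, 333 and 397 CPM in naive libraries, with no overlap (log2 fold change 0.55, SE 0.13, adjusted p = 0.00914). The thioesterase PPT1, the acid ceramidase ASAH1 and the acid sphingomyelinase SMPD1 had -0.28, 0.21 and 0.30 and did not pass. LAMP1, the main glycoprotein of the lysosomal membrane, had 356, 314, 386 and 464 CPM in memory and 225, 233 and 304 CPM in naive libraries. Its lowest memory library lay just above its highest naive library (log2 fold change 0.53, SE 0.12, adjusted p = 0.00772). The other 5 membrane genes, which are LAMP2, SCARB2, CD63, CLN3 and MCOLN1, had values between -0.31 (SCARB2) and 0.26 (LAMP2).

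**Figure D2:**
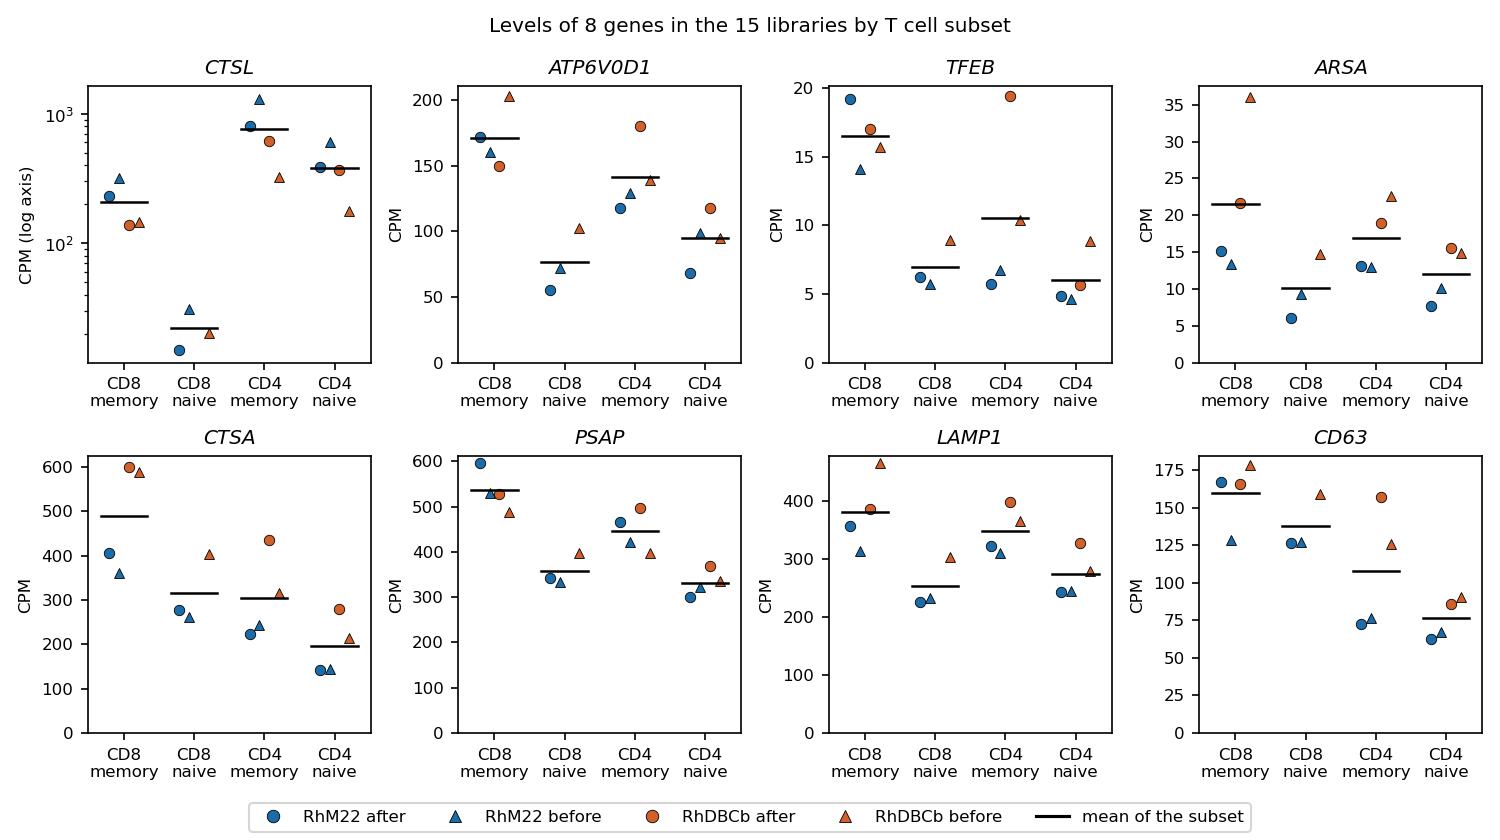
Each panel shows 1 gene, with CPM on the y axis (logarithmic for CTSL) and the 4 subsets on the x axis. Points are libraries, shaped by time and colored by animal, and the bar is the mean of the subset. CTSL spans from 15.0 CPM in a CD8 naive library to 1308 CPM in a CD4 memory library, and CTSA of RhDBCb lies above that of RhM22 within each subset.

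The sterol egress genes themselves did not pass between CD8 memory and CD8 naive cells. NPC1 had 13.8, 18.9, 17.0 and 11.0 CPM in memory and 16.1, 10.5 and 7.67 CPM in naive libraries (log2 fold change 0.46, SE 0.22, adjusted p = 0.192). NPC2 had 4.93, 3.98, 4.17 and 5.36 CPM in memory and 3.40, 3.42 and 4.40 CPM in naive libraries (0.28, SE 0.23, adjusted p = 0.447). The acid lipase gene LIPA had 46.6, 52.5, 62.4 and 96.3 CPM in memory and 48.9, 47.1 and 63.2 CPM in naive libraries (0.23, SE 0.18, adjusted p = 0.442). STARD3, a sterol carrier at contacts between late endosomes and the endoplasmic reticulum, had 46.0, 38.9, 40.3 and 41.7 CPM in memory and 52.2, 43.0 and 34.2 CPM in naive libraries (-0.0053, SE 0.16, adjusted p = 0.994). For each of the 4 genes the memory and naive ranges overlapped.

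Of 112 further lysosome and sterol trafficking genes tested, 21 were higher and 8 lower in CD8 memory than in CD8 naive libraries. Of all genes, 9.93% were higher and 6.60% lower. For SORT1, a sorting receptor, the log2 fold change was 2.04 (SE 0.40, adjusted p = 0.00347). OSBPL7, of the oxysterol-binding protein family, had 1.95 (SE 0.39, adjusted p = 0.00418), and TCIRG1, a pump subunit, 1.93 (SE 0.20, adjusted p = 5.47e-05). Lower were the GTPase gene RRAGD, which acts in nutrient sensing at the lysosome, at -2.18 (SE 0.23, adjusted p = 5.13e-05), the pump subunit ATP6V0A1 at -1.98 (SE 0.30, adjusted p = 6.96e-04) and the protease LGMN at -1.67 (SE 0.33, adjusted p = 0.00403). The pump subunits TCIRG1 and ATP6V0A1 are alternative forms of 1 subunit: TCIRG1 had 117, 83.6, 112 and 158 CPM in memory and 20.9, 24.2 and 43.3 CPM in naive libraries, and ATP6V0A1 4.25, 2.12, 1.15 and 0.424 CPM in memory and 7.97, 9.99 and 2.58 CPM in naive libraries.

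When 1 library was left out at a time, CTSL, ATP6V0D1 and ARSA passed in all 15 fits. TFEB was lost without the CD8 memory libraries of RhM22 after or RhM22 before, or any CD8 naive library (adjusted p = 0.00256 to 0.0908), TPP1 was lost without the CD8 memory libraries of RhM22 after or RhDBCb before, or the CD8 naive libraries of RhM22 after or RhM22 before (adjusted p = 0.0178 to 0.159) and CTSA was lost without any CD8 naive library (adjusted p = 0.00672 to 0.0764). CTSB was lost without the CD8 naive libraries of RhM22 before or RhDBCb before (adjusted p = 0.0047 to 0.0997), PSAP was lost without the CD8 naive libraries of RhM22 after or RhM22 before (adjusted p = 0.00583 to 0.0727) and LAMP1 was lost without the CD8 naive library of RhM22 after (adjusted p = 0.00548 to 0.07). With the draw left out of the model 3 genes were called (ATP6V0D1, CTSL and PSAP), among the before libraries alone 2 (ATP6V0D1 and CTSL) and among the after libraries alone CTSL. The gene models of ATP6V0D1, CTSA and CTSB span 4.50, 2.67 and 2.55 times the RefSeq gene, so their counts may hold reads of overlapping neighbors, which was not tested. The same limit applies to these genes in every comparison below, and to NPC1, whose gene model spans 3.05 times the RefSeq gene. Of 5 natural killer cell markers 4 had a row, and their summed level was 20.7 to 79.1 CPM in CD8 memory and 7.15 to 14.6 CPM in CD8 naive libraries. Most of it in CD8 memory was KLRF1, at 19.1 to 61.9 CPM. KIR2DL4 had 0.798 to 13.9, NCR1 0.696 to 2.06 and NCAM1 0.0679 to 1.80 CPM there. Of 12 monocyte and dendritic cell markers 11 had a row, and these summed to 30.2 to 69.7 CPM in CD8 memory and 31.3 to 51.6 CPM in CD8 naive libraries. Over all libraries the defining markers LYZ, CD14 and CSF1R had 0.0265 to 26.6, 0.821 to 10.8 and 0.0932 to 3.68 CPM. Makeup of the sum varied: ITGAX, TYROBP and LYZ had 17.5, 12.3 and 0.0265 CPM in RhDBCb CD8 naive before. In RhM22 CD8 memory before they had 11.2, 13.2 and 26.6 CPM. The part of the natural killer, monocyte and dendritic cell markers in these differences was not tested.

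In CD4 cells, 5 of the 35 genes were higher in memory than in naive libraries, and none was lower: CTSA, CTSL, ATP6V0D1, PSAP and LAMP1. All 5 were also called in CD8 cells. The 5 are 14.3% of the 35, close to the 11.5% of all genes that were called (6.82% higher and 4.71% lower). Of the 35, 24 lay above 0, with a median log2 fold change of 0.16, against -0.02 over all genes.

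CTSA had 225, 245, 436 and 315 CPM in CD4 memory and 143, 145, 281 and 214 CPM in CD4 naive libraries. The animals overlapped, but memory was above naive in all 4 draws (log2 fold change 0.65, SE 0.11, adjusted p = 0.0015). CTSL had 802, 1308, 617 and 323 CPM in memory and 390.2, 599, 367 and 178 CPM in naive libraries. Its spread between draws was wider than its step from naive to memory, which held in all 4 draws (log2 fold change 0.95, SE 0.24, adjusted p = 0.02). ATP6V0D1 had 118, 129.6, 180.3 and 139 CPM in memory and 68.2, 98.5, 118 and 95.3 CPM in naive libraries, so that the lowest memory and the highest naive library had nearly the same level (log2 fold change 0.58, SE 0.16, adjusted p = 0.034). PSAP had 466, 421, 497 and 398 CPM in memory and 299.9, 323, 369 and 336 CPM in naive libraries. The ranges did not overlap (log2 fold change 0.42, SE 0.11, adjusted p = 0.0289). LAMP1 had 322, 310.1, 398 and 365 CPM in memory and 242, 244, 326 and 279 CPM in naive libraries, which overlapped across animals and not within draws (log2 fold change 0.35, SE 0.11, adjusted p = 0.0457).

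None of the sterol egress genes passed between CD4 memory and CD4 naive cells. NPC1 had 20.3, 15.1, 10.6 and 10.0 CPM in memory and 14.0, 12.5, 13.2 and 9.30 CPM in naive libraries (log2 fold change 0.16, SE 0.20, adjusted p = 0.667). NPC2 had 5.38, 4.19, 7.06 and 5.90 CPM in memory and 4.48, 3.85, 4.40 and 5.64 CPM in naive libraries (0.29, SE 0.21, adjusted p = 0.419). LIPA had 62.5, 59.3, 58.9 and 56.6 CPM in memory and 41.6, 35.3, 54.0 and 53.0 CPM in naive libraries (0.40, SE 0.17, adjusted p = 0.149). Memory was above naive for NPC2 and LIPA in all 4 draws, and for NPC1 in 3 of 4. STARD3 had 27.0, 26.8, 28.4 and 32.0 CPM in memory and 36.1, 36.7, 28.2 and 36.9 CPM in naive libraries (-0.26, SE 0.15, adjusted p = 0.287). TFEB had 5.69, 6.74, 19.4 and 10.4 CPM in memory and 4.86, 4.60, 5.68 and 8.88 CPM in naive libraries (0.73, SE 0.28, adjusted p = 0.122), with the highest value in the RhDBCb after memory library. CTSZ had the largest log2 fold change of the 35, 1.26 (SE 0.41, adjusted p = 0.0651), at 8.36, 5.14, 7.29 and 4.11 CPM in memory and 5.09, 2.57, 0.682 and 3.71 CPM in naive libraries, and did not pass.

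**Figure D3:**
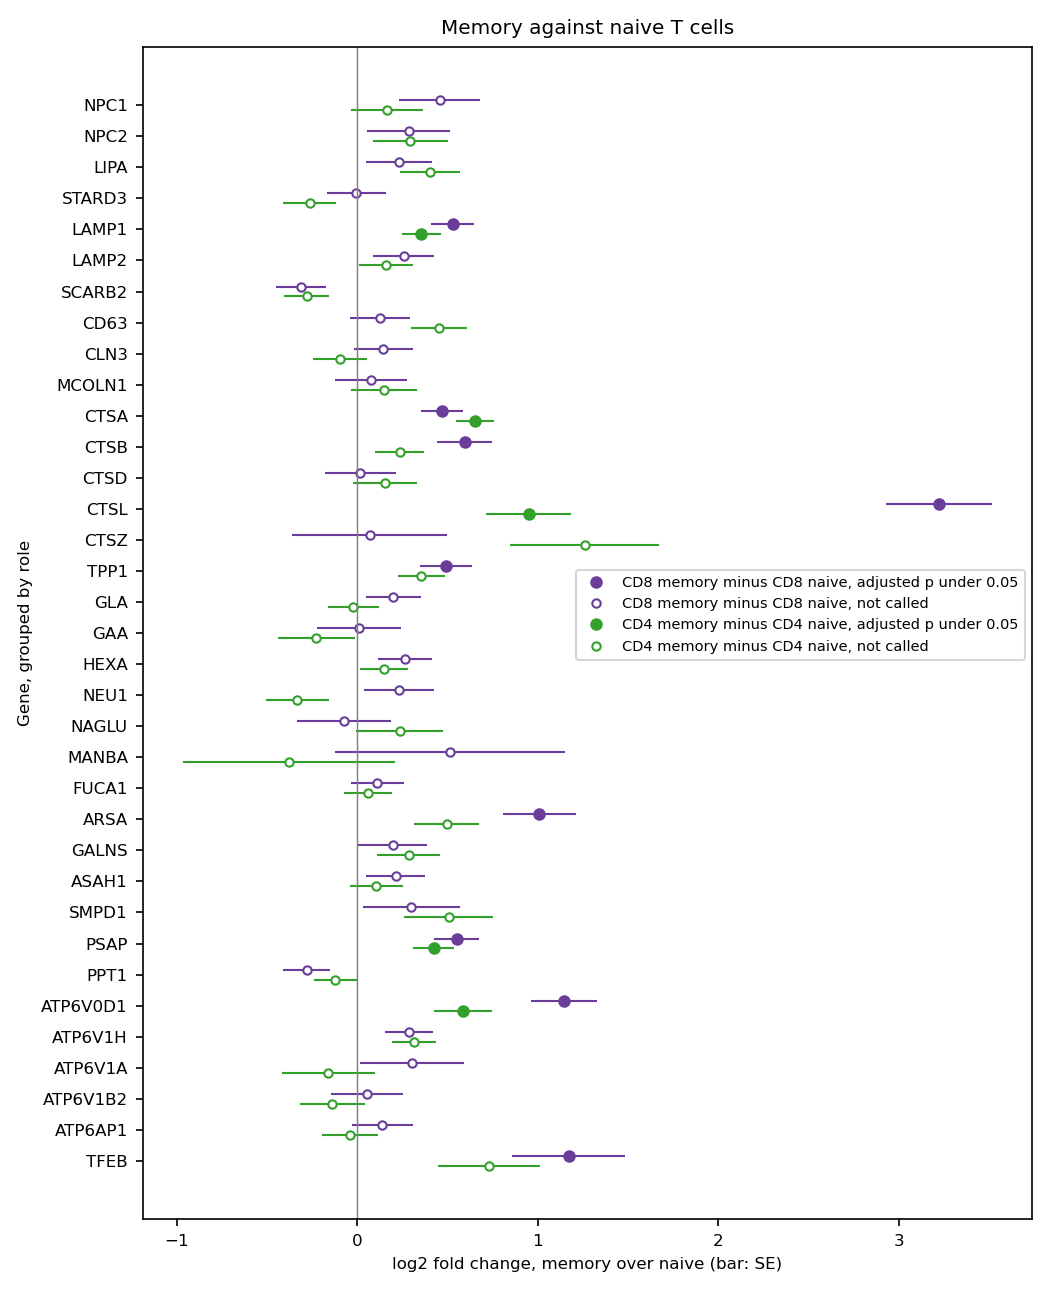
The x axis is the log2 fold change of memory over naive cells with its SE, and each row is 1 of the 35 genes, grouped by role. Purple is CD8 and green CD4, and filled points passed at an adjusted p under 0.05. CTSL lies at 3.22 in CD8 and 0.95 in CD4 cells, and no filled point lies below 0.

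Among the 112 further genes, 14 were higher and 8 lower in CD4 memory than in CD4 naive libraries. Of all genes, 6.82% were higher and 4.71% lower. GLB1, the lysosomal beta-galactosidase that CTSA protects, differed by 1.57 (SE 0.18, adjusted p = 1.11e-04) on the log2 scale, with 119, 114, 216 and 149 CPM in memory and 41.6, 39.6, 68.8 and 49.9 CPM in naive libraries. OSBPL7 had 1.36 (SE 0.35, adjusted p = 0.0226). ATP6V0A1 had -1.26 (SE 0.27, adjusted p = 0.00857), the aminopeptidase CTSH -1.21 (SE 0.17, adjusted p = 4.55e-04) and FNIP2, a partner of the TFEB regulator folliculin, -1.0 (SE 0.27, adjusted p = 0.0309).

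In the fits without 1 library, CTSA passed in all 15 fits (adjusted p = 8.3e-04 to 0.00868). CTSL was lost without the CD4 memory libraries of RhM22 after, RhM22 before or RhDBCb after, or the CD4 naive libraries of RhM22 before or RhDBCb before (adjusted p = 0.0038 to 0.0688), ATP6V0D1 was lost without the CD4 memory libraries of RhM22 after, RhM22 before or RhDBCb after, or the CD4 naive libraries of RhM22 after, RhM22 before or RhDBCb before (adjusted p = 0.0122 to 0.129) and PSAP was lost without the CD4 memory libraries of RhM22 after, RhM22 before or RhDBCb after, or the CD4 naive libraries of RhM22 after, RhM22 before or RhDBCb after (adjusted p = 0.0183 to 0.106). LAMP1 passed only without the CD8 memory libraries of RhM22 after, RhDBCb after or RhDBCb before, the CD8 naive library of RhM22 after, or the CD4 memory library of RhDBCb before (adjusted p = 0.022 to 0.128). None of the 5 calls was made with the draw left out of the model, nor among the before or the after libraries alone, where 2 draws remain. With library totals in place of TMM factors the calls were CTSA and CTSL only. The wide gene models of CTSA and ATP6V0D1, given above, limit these calls too. Monocyte and dendritic cell markers summed to 22 to 52.3 CPM in CD4 memory and 13.2 to 22.2 CPM in CD4 naive libraries, and their part in these differences was not tested.

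CTSL was the only one of the 35 genes whose step from naive to memory differed between CD8 and CD4 cells when the difference was tested. Its step was larger in CD8 cells by 2.27 (SE 0.36, adjusted p = 0.0384) on the log2 scale, where 0.0878% of all genes were called (0.0675% higher and 0.0203% lower). The 35 genes had a median difference of 0.13, against 0.05 over all genes. The sterol egress genes, TFEB and LAMP1 lay at NPC1 0.29, NPC2 -0.0093, LIPA -0.17, STARD3 0.26, TFEB 0.44 and LAMP1 0.17, none of which passed. CTSL passed only without the CD8 memory libraries of RhDBCb after or RhDBCb before, the CD8 naive library of RhDBCb before, or the CD4 naive library of RhDBCb before (adjusted p = 0.00422 to 0.171). It was also lost with library totals (2.23, adjusted p = 0.0523), with the draw left out (2.25, 0.854), and among the before (2.06, 1) or after libraries alone (2.87, 0.422).

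Between CD8 and CD4 cells, CTSL was lower and CTSA and CD63 higher in CD8, among naive and among memory cells alike. In naive cells these were the only 3 called of 35 genes (8.57%), where 3.37% of all genes were called (1.69% higher and 1.68% lower). In memory cells CTSZ was lower and STARD3 higher as well, which makes 5 of 35 (14.3%), against 8.24% of all genes (4.63% higher and 3.61% lower). The median log2 fold change of the 35 genes was -0.03 in naive and 0.19 in memory cells, against -0.02 and 0.03 over all genes.

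CTSL in CD8 naive libraries, at 15.0, 31.3 and 20.4 CPM, stood against 390.2, 599, 367 and 178 CPM in CD4 naive libraries. No CD8 library came near the CD4 range (log2 fold change -4.06, SE 0.31, adjusted p = 3.51e-06). In memory cells it had 229.9, 321, 139 and 147 CPM in CD8 and 802, 1308, 617 and 323 CPM in CD4 libraries. There the ranges nearly met, since RhM22 CD8 and RhDBCb CD4 cells before treatment had almost the same level (log2 fold change -1.79, SE 0.24, adjusted p = 4.15e-04). CTSA had 279, 263 and 404 CPM in CD8 naive and 143, 145, 281 and 214 CPM in CD4 naive libraries (log2 fold change 0.88, SE 0.12, adjusted p = 5.67e-04), with memory values given above (0.70, SE 0.11, adjusted p = 0.00101). CD8 was above CD4 in every draw for this gene, 3 of 3 in naive and 4 of 4 in memory cells. CD63 is a tetraspanin of late endosomes and of cytotoxic granules. It had 126, 127 and 159 CPM in CD8 naive libraries, all above the 62.7, 67.0, 86.1 and 90.7 CPM in CD4 naive libraries (log2 fold change 0.95, SE 0.17, adjusted p = 0.0048). In memory cells it had 167, 128, 165 and 178 CPM in CD8 and 72.8, 76.5, 157 and 126 CPM in CD4 libraries. The RhDBCb CD4 library after treatment lay within the CD8 range (log2 fold change 0.63, SE 0.15, adjusted p = 0.0215).

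CTSZ had 3.97, 2.12, 1.43 and 2.04 CPM in CD8 memory and 8.36, 5.14, 7.29 and 4.11 CPM in CD4 memory libraries, low levels that did not overlap (log2 fold change -1.52, SE 0.40, adjusted p = 0.0314). STARD3 was the only gene of sterol egress called between subsets. It had 46.0, 38.9, 40.3 and 41.7 CPM in CD8 memory libraries, above all 4 CD4 memory libraries at 27.0, 26.8, 28.4 and 32.0 CPM (log2 fold change 0.54, SE 0.15, adjusted p = 0.0351). In naive cells its log2 fold change was 0.28 (SE 0.16, adjusted p = 0.508), and the difference between the 2 contrasts, 0.26 (SE 0.22), did not pass. The other sterol egress genes, TFEB and LAMP1 had, in naive cells, log2 fold changes of NPC1 -0.14, NPC2 -0.27, LIPA 0.24, TFEB 0.34 and LAMP1 -0.052. In memory cells they had NPC1 0.15, NPC2 -0.28, LIPA 0.064, TFEB 0.78 and LAMP1 0.12, and none passed in either. For TFEB in memory cells the adjusted p was 0.115, and CD8 was above CD4 in 3 of 4 draws and below it in RhDBCb after. Only without the CD4 memory library of that draw, the highest in CD4 cells for TFEB, is a pass given here (1.17, adjusted p = 0.00979). That fit leaves out the value that went the other way.

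Of the 112 further genes, 2 were higher and 4 lower in CD8 than in CD4 naive libraries, where 1.69% of all genes were higher and 1.68% lower. In memory libraries 8 of the 112 were higher and 5 lower in CD8, where 4.63% of all genes were higher and 3.61% lower. SORT1 had log2 fold changes of 3.26 (SE 0.40, adjusted p = 3.42e-04) in naive and 3.95 (SE 0.39, adjusted p = 3.47e-05) in memory cells. It lay at 46.4, 42.3, 81.0 and 51.3 CPM in CD8 memory against 1.58, 1.68, 9.54 and 6.36 CPM in CD4 memory libraries. ATP6V0A1 had -1.51 (SE 0.31, adjusted p = 0.0136) in naive and -2.24 (SE 0.28, adjusted p = 2.58e-04) in memory cells. In naive cells RRAGD had 1.69 (SE 0.23, adjusted p = 7.90e-04), the membrane protein LAPTM4B -1.03 (SE 0.22, adjusted p = 0.0182) and CTSH -0.75 (SE 0.19, adjusted p = 0.0426). In memory cells FNIP2 had 1.29 (SE 0.28, adjusted p = 0.0101), SOAT1, which esterifies cholesterol, 0.75 (SE 0.16, adjusted p = 0.00826), LGMN -2.21 (SE 0.31, adjusted p = 5.37e-04) and the acid phosphatase ACP5 -1.46 (SE 0.42, adjusted p = 0.0463).

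Leaving out single libraries kept the 3 calls of naive cells, and those of CTSL and CTSA in memory cells, in all 15 fits. CD63 was lost without the CD8 memory library of RhM22 after, or the CD4 memory libraries of RhM22 after or RhM22 before (adjusted p = 0.00475 to 0.091). CTSZ was lost without any CD8 memory library, or the CD4 memory libraries of RhM22 after, RhM22 before or RhDBCb after (adjusted p = 0.00778 to 0.153). STARD3 passed only without the CD8 naive library of RhDBCb before, the CD4 memory library of RhDBCb before, or the CD4 naive libraries of RhM22 before, RhDBCb after or RhDBCb before (adjusted p = 0.0188 to 0.128). With the draw left out, CTSL was the only call in each contrast. The wide gene model of CTSA, given above, limits its calls here too. Natural killer markers summed to at most 2.56 CPM in CD4 libraries, against 7.15 to 79.1 CPM in CD8 libraries, where KLRF1 alone had 4.15 to 61.9 CPM. Sums of the monocyte and dendritic cell markers are given above for each subset. Of the defining ones, CD14 had 5.68, 2.95, 2.44 and 2.21 CPM in CD8 memory and 7.61, 5.46, 10.8 and 3.70 CPM in CD4 memory libraries. LYZ had 9.16, 26.6, 4.25 and 1.61 CPM against 24.1, 17.9, 14.7 and 2.69 CPM. CSF1R had 3.14, 3.23, 1.02 and 0.238 CPM against 2.27, 2.18, 1.15 and 0.124 CPM. The part of these markers was not tested.

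Over all subsets, none of the 35 genes was called between after and before treatment. By edgeR 2 of 35 had an unadjusted p under 0.05, where 10.3% of all genes did, and 0.00675% of all genes were called. DESeq2 also called 0 of the 35, and 1.19% of all genes. The median log2 fold change of the 35 was 0.05, against 0.01 over all genes, and 22 lay above 0. The 95% interval of the change lay within 1.5-fold in either direction for 27 of the 35 genes and within 2-fold for 32. These intervals count libraries of 1 draw as independent and average over the 2 animals, so they do not bound the change in either animal. The interval of GLA, for example, was -0.44 to 0.28, with changes of -0.53 in RhM22 and 0.46 in RhDBCb.

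**Figure D4:**
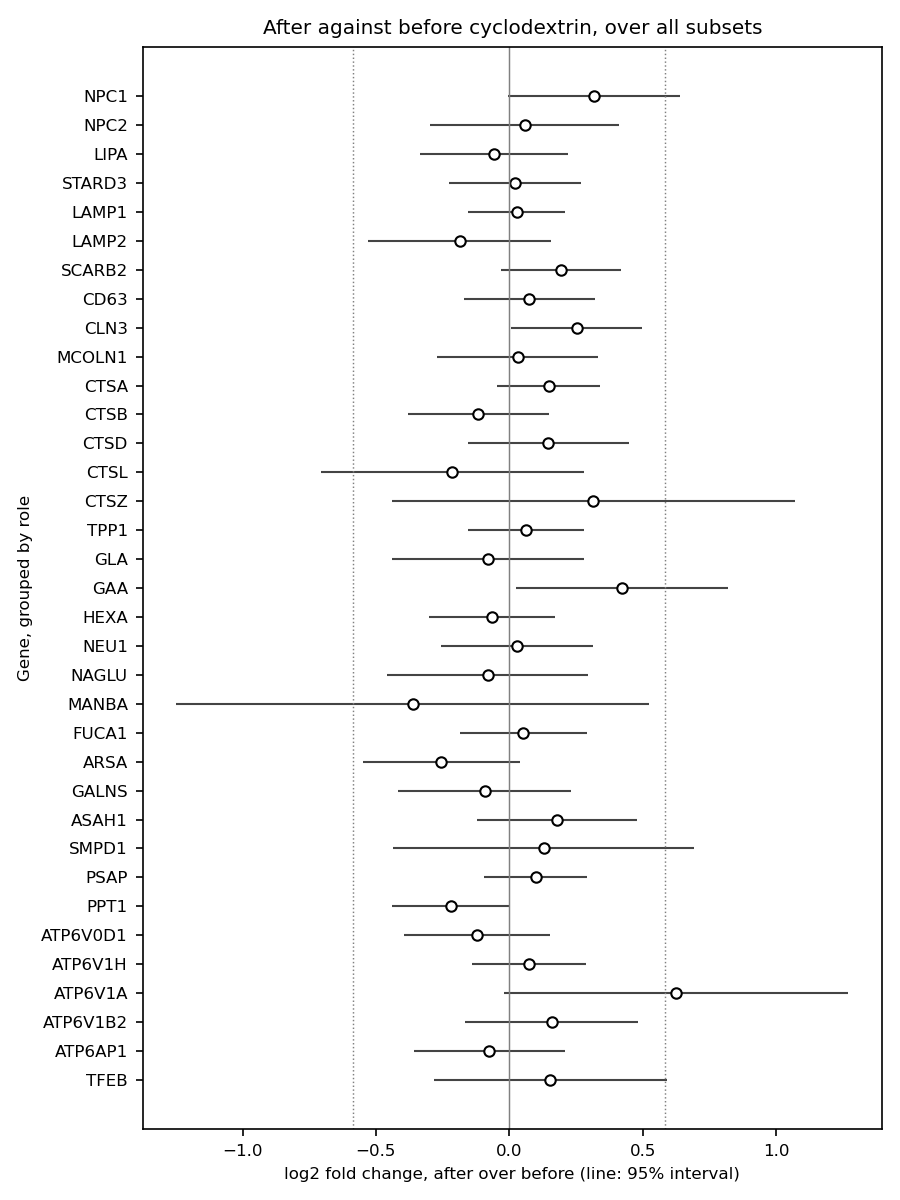
The x axis is the log2 fold change of after over before treatment over all subsets, with its 95% interval, for the 35 genes grouped by role. Dotted lines mark 1.5-fold in either direction. No gene passed, and the intervals of 27 genes lie between the dotted lines.

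NPC1 had 13.8, 16.1, 20.3 and 14.0 CPM in RhM22 after, against 18.9, 10.5, 15.1 and 12.5 CPM in RhM22 before treatment, in the order CD8 memory, CD8 naive, CD4 memory and CD4 naive. In RhDBCb it had 17.0, 10.6 and 13.2 CPM after treatment in CD8 memory, CD4 memory and CD4 naive cells, against 11.0, 7.67, 10.0 and 9.30 CPM before in all 4 subsets. After was above before in 6 of 7 pairs of an animal and a subset, and the log2 fold change was 0.32 (SE 0.15, adjusted p = 0.483), with a 95% interval of -0.004 to 0.64. The wide gene model of NPC1, given above, limits this result too. NPC2 had 0.057 (SE 0.16, adjusted p = 0.935), with an interval of -0.30 to 0.41. LIPA had -0.058 (SE 0.13, adjusted p = 0.915), with an interval of -0.34 to 0.22, and STARD3 0.021 (SE 0.12, adjusted p = 0.97), with an interval of -0.23 to 0.27. LAMP1 had 0.027 (SE 0.085, adjusted p = 0.939), with an interval of -0.15 to 0.21. TFEB had 0.15 (SE 0.20, adjusted p = 0.833), with a wider interval of -0.28 to 0.59.

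The 2 genes with an unadjusted p under 0.05 were GAA and CLN3. GAA, the acid alpha-glucosidase that breaks down glycogen, had 0.42 (SE 0.19, adjusted p = 0.464), and after was above before in 6 of 7 pairs. CLN3, a membrane protein lost in a childhood lysosomal storage disease, had 57.3, 46.8, 46.4 and 43.0 CPM after and 47.8, 41.5, 36.9 and 41.8 CPM before treatment in RhM22. In RhDBCb it had 57.8, 48.8 and 51.8 CPM after, in CD8 memory, CD4 memory and CD4 naive cells, and 58.0, 54.6, 30.0 and 35.8 CPM before treatment in all 4 subsets. After was above before in 6 of 7 pairs, and the seventh was level (log2 fold change 0.25, SE 0.11, adjusted p = 0.468). The gene models of CLN3 and GLA span 0.229 and 0.484 times the RefSeq gene, and the effect of this was not tested. The widest intervals were those of MANBA (-1.25 to 0.52), CTSZ (-0.44 to 1.07) and ATP6V1A (-0.021 to 1.27), the first 2 of which are low.

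Within single subsets edgeR called none of the 35 genes either, and 0% of all genes. At an unadjusted p under 0.05 there were 0 of 35 in CD8 memory, 1 in CD8 naive, 0 in CD4 memory and 0 in CD4 naive cells, against 1.46%, 0.999%, 1.55% and 4.07% of all genes. DESeq2 called 0 of the 35 in each, and at most 0.0608% of all genes. These contrasts rest on 2 animals, and on 1 animal after treatment in CD8 naive cells, whose spread was taken from the other libraries. The interval lay within 2-fold for 27 genes in CD8 memory, 17 in CD8 naive, 25 in CD4 memory and 26 in CD4 naive cells. The sterol egress genes, TFEB and LAMP1 had log2 fold changes of NPC1 0.12, NPC2 -0.0065, LIPA -0.42, STARD3 0.095, TFEB 0.31 and LAMP1 -0.044 in CD8 memory cells. In CD8 naive cells they had NPC1 0.63, NPC2 -0.05, LIPA 0.021, STARD3 0.41, TFEB 0.092 and LAMP1 -0.084. In CD4 memory cells they had NPC1 0.28, NPC2 0.31, LIPA 0.068, STARD3 -0.088, TFEB 0.45 and LAMP1 0.088, and in CD4 naive cells NPC1 0.35, NPC2 -0.068, LIPA 0.13, STARD3 -0.20, TFEB -0.28 and LAMP1 0.11. A test of any difference in the change between the 4 subsets called 0 of the 35 genes with edgeR, with 0 at an unadjusted p under 0.05, where 0.479% of all genes lay. Of the 112 further genes none was called over all subsets, and 16 had an unadjusted p under 0.05, where 10.3% of all genes did.

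The change after treatment differed between RhM22 and RhDBCb for 4 of the 35 genes (11.4%), where 4.58% of all genes were called (1.81% higher and 2.77% lower in RhM22). The change of ATP6V1A, GLA and LAMP2 was lower in RhM22 than in RhDBCb, and that of SMPD1 was higher. With 1 draw per animal and time, p here measures the spread among libraries of the 4 draws and not the spread among draws, so a difference between animals and one between days of drawing cannot be told apart. In the values below, a draw is given in the order CD8 memory, CD8 naive, CD4 memory and CD4 naive, and RhDBCb after lacks CD8 naive.

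ATP6V1A is the catalytic subunit of the proton pump. It had 128, 191, 181 and 179 CPM in RhM22 after and 246, 202, 181 and 166 CPM in RhM22 before treatment. In RhDBCb it had 184, 51.0 and 106 CPM after and 49.2, 34.8, 31.4 and 30.0 CPM before treatment. All RhDBCb libraries after treatment lay above all those before, whose levels were the lowest of the series, while the RhM22 draws overlapped. The change in RhM22 minus that in RhDBCb was -1.76 (SE 0.38, adjusted p = 0.0216) on the log2 scale. Within the animals the log2 fold change was -0.18 (SE 0.25, adjusted p = 1) in RhM22 and 1.58 (SE 0.28, adjusted p = 0.00586) in RhDBCb. The other pump genes had differences of ATP6V0D1 -0.24, ATP6V1H -0.26, ATP6V1B2 -0.53 and ATP6AP1 0.46, none called.

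GLA encodes alpha-galactosidase A, the enzyme missing in Fabry disease. It had 90.9, 75.7, 58.0 and 64.6 CPM in RhM22 after and 114, 105, 82.4 and 111 CPM in RhM22 before treatment. In RhDBCb it had 113, 88.7 and 89.1 CPM after and 86.6, 73.1, 74.5 and 51.6 CPM before treatment. After was below before in each subset of RhM22 and above it in each pair of RhDBCb. The change in RhM22 minus that in RhDBCb was -0.99 (SE 0.21, adjusted p = 0.0182). Within the animals the log2 fold changes, -0.53 (SE 0.14, adjusted p = 0.292) in RhM22 and 0.46 (SE 0.15, adjusted p = 0.0767) in RhDBCb, did not pass.

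LAMP2, a membrane glycoprotein needed for fusion with autophagosomes, had 153, 174, 197 and 170.2 CPM in RhM22 after and 239, 230.0, 308 and 268 CPM in RhM22 before treatment. The RhM22 libraries after treatment all lay below those before. In RhDBCb it had 149.9, 127 and 145 CPM after and 133, 77.2, 137 and 103 CPM before treatment, which overlapped. The change in RhM22 minus that in RhDBCb was -0.86 (SE 0.22, adjusted p = 0.0438), from -0.58 (SE 0.15, adjusted p = 0.276) in RhM22 and 0.28 (SE 0.16, adjusted p = 0.314) in RhDBCb. SMPD1, the acid sphingomyelinase, had 25.7, 24.4, 17.7 and 13.8 CPM in RhM22 after and 15.2, 13.8, 10.3 and 9.17 CPM in RhM22 before treatment. In RhDBCb it had 14.3, 21.7 and 8.65 CPM after and 36.4, 17.1, 20.7 and 19.9 CPM before treatment. After lay above before in each subset of RhM22, and below it in CD8 memory and CD4 naive cells of RhDBCb. The change in RhM22 minus that in RhDBCb was 1.39 (SE 0.36, adjusted p = 0.0479), from 0.74 (SE 0.24, adjusted p = 0.492) in RhM22 and -0.65 (SE 0.27, adjusted p = 0.155) in RhDBCb.

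**Figure D5:**
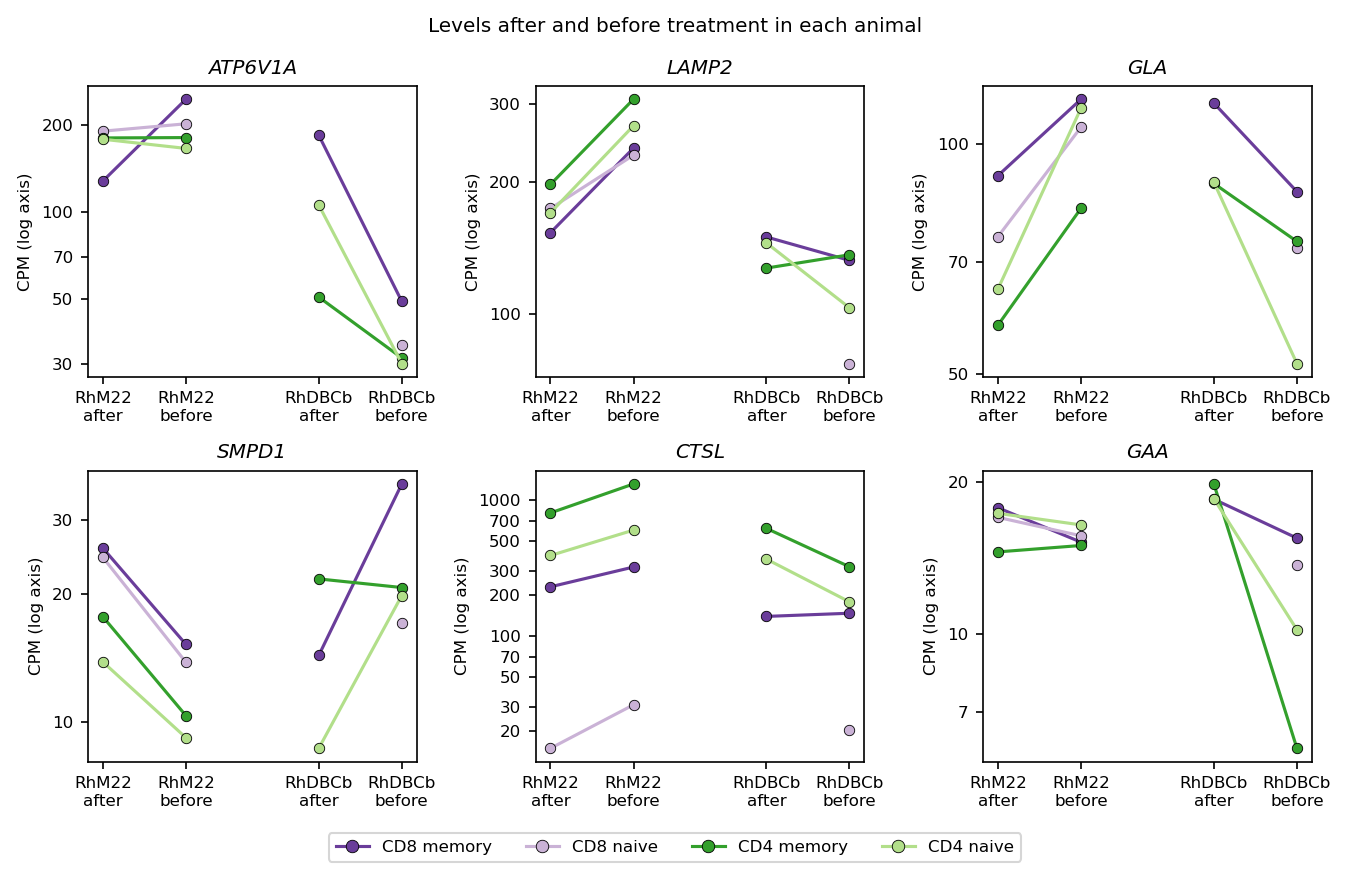
Each panel shows 1 gene, with CPM on a logarithmic y axis and the 4 draws on the x axis. Points are libraries colored by subset, and lines join a subset of 1 animal after and before treatment. For ATP6V1A the RhDBCb libraries before treatment, at 30.0 to 49.2 CPM, lie below all other libraries.

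Within RhDBCb 2 of the 35 genes (5.71%) were called between after and before, both higher, where 10.1% of all genes were called (5.49% higher and 4.62% lower). Beside ATP6V1A this was GAA, with 18.5, 19.8 and 18.5 CPM after and 15.5, 13.7, 5.93 and 10.2 CPM before treatment. The libraries did not overlap, and the lowest was CD4 memory before treatment (log2 fold change 0.83, SE 0.24, adjusted p = 0.041). In RhM22 it had 17.7, 17.0, 14.5 and 17.3 CPM after and 15.2, 15.6, 14.9 and 16.4 CPM before treatment (0.09, SE 0.21, adjusted p = 1). The test of the difference between the animals did not pass for GAA (RhM22 minus RhDBCb -0.74 (SE 0.32, adjusted p = 0.208)). Within RhM22 none of the 35 genes was called by edgeR, 6 had an unadjusted p under 0.05 (6.57% of all genes), and DESeq2 called 2 (GLA and LAMP2, both lower), where edgeR called 0.0608% and DESeq2 1.57% of all genes. The sterol egress genes, TFEB and LAMP1 had log2 fold changes of NPC1 0.21, NPC2 0.22, LIPA 0.053, STARD3 0.13, TFEB 0.14 and LAMP1 0.042 in RhM22. In RhDBCb they had NPC1 0.45, NPC2 -0.14, LIPA -0.20, STARD3 -0.11, TFEB 0.17 and LAMP1 0.0085, and none passed the test of a difference between the animals.

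Of the 112 further genes, 3 had a higher and 1 a lower change in RhM22 than in RhDBCb, where 1.81% of all genes had a higher and 2.77% a lower one. LAMTOR2 and LAMTOR3, of the complex that anchors nutrient sensing on the lysosome, had differences of 1.28 (SE 0.29, adjusted p = 0.027) and 0.99 (SE 0.26, adjusted p = 0.0496). LGMN had -1.77 (SE 0.45, adjusted p = 0.04). Within RhDBCb 5 of the 112 were higher and 9 lower after treatment, where 5.49% of all genes were higher and 4.62% lower. Among the higher were ATP6V0A1 at 1.55 (SE 0.31, adjusted p = 0.00888), LGMN at 1.33 (SE 0.34, adjusted p = 0.0252) and the hyaluronidase HYAL2 at 0.96 (SE 0.29, adjusted p = 0.0488). Among the lower were LAMTOR3 at -0.97 (SE 0.20, adjusted p = 0.00967) and LAMTOR2 at -0.87 (SE 0.22, adjusted p = 0.0249). For ATP6V0A1 and HYAL2 the difference between the animals did not pass, at -1.31 (SE 0.40, adjusted p = 0.0812) and -0.79 (SE 0.39, adjusted p = 0.274).

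In the fits without 1 library, ATP6V1A passed in all 15 fits (adjusted p = 0.0011 to 0.0457) within RhDBCb, and GAA passed only without the CD8 memory libraries of RhM22 after or RhDBCb before, or the CD8 naive library of RhDBCb before (adjusted p = 0.0114 to 0.133). For the difference between the animals, GLA was lost without the CD8 naive library of RhM22 before, or the CD4 naive library of RhDBCb after (adjusted p = 0.0151 to 0.0714). ATP6V1A was lost without the CD8 memory library of RhDBCb after, the CD8 naive library of RhM22 before, the CD4 memory library of RhM22 before, or the CD4 naive libraries of RhDBCb after or RhDBCb before (adjusted p = 0.00252 to 0.0867). LAMP2 passed only without the CD8 memory libraries of RhM22 before or RhDBCb before, the CD8 naive library of RhM22 after, or the CD4 memory library of RhDBCb after (adjusted p = 0.0153 to 0.154). SMPD1 passed only without the CD8 naive library of RhDBCb before, or the CD4 memory library of RhDBCb after (adjusted p = 0.00586 to 0.173), and was also lost with RLE factors (1.38, adjusted p = 0.0506) and with library totals (1.33, 0.051). The 11 platelet markers moved with the draws: their summed level was 33.9 to 107 CPM in RhM22 after, 23.9 to 66.6 CPM in RhM22 before, 16.1 to 29.4 CPM in RhDBCb after and 3.24 to 4.50 CPM in RhDBCb before treatment. The defining markers PPBP and PF4 were above 0 in every library, and their part in these differences was not tested. Genes with a count of at least 1 numbered 14774 to 15175 in RhM22 after and 15006 to 15437 in RhM22 before treatment. In RhDBCb they numbered 14389 to 15018 after and 13503 to 14741 before treatment. The part of these numbers in the differences was not tested.

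Before treatment the draws of the 2 animals differed in 21 of the 35 genes (60.0%), where 37.6% of all genes were called (19.4% higher and 18.3% lower). Each animal had 1 draw before treatment, so p measures the spread among libraries and not among draws. A difference between animals and one between days of drawing cannot be told apart here. The RhDBCb libraries before treatment also had fewer genes with a count of at least 1, at 13503 to 14741. Those of RhM22 had 15006 to 15437, with no overlap, and the part of this in the calls was not tested. RhM22 was higher than RhDBCb in 8 and lower in 13. This comparison was added after the data were seen. The largest difference was that of ATP6V1A, at 2.46 (SE 0.27, adjusted p = 2.36e-05), followed by MANBA, beta-mannosidase, at 1.83 (SE 0.59, adjusted p = 0.0249). MANBA had 3.79, 5.00, 3.90 and 3.95 CPM in RhM22 and 2.65, 0.874, 0.957 and 0.629 CPM in RhDBCb before treatment, with no overlap. CTSL had 1.33 (SE 0.24, adjusted p = 8.36e-04) and LAMP2 1.23 (SE 0.15, adjusted p = 5.65e-05), from the values given above.

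Further genes higher in RhM22 before treatment were NPC1, GLA, FUCA1 and ATP6V1H. NPC1 had 0.57 (SE 0.20, adjusted p = 0.0384) and GLA 0.54 (SE 0.14, adjusted p = 0.00831). The alpha-fucosidase gene FUCA1 had 85.8, 87.5, 83.8 and 82.7 CPM in RhM22 and 74.1, 53.3, 64.4 and 51.3 CPM in RhDBCb, with no overlap (0.49, SE 0.13, adjusted p = 0.0104). ATP6V1H, a regulatory pump subunit, had 50.4, 42.5, 40.0 and 32.3 CPM in RhM22 and 37.4, 30.8, 33.2 and 24.5 CPM in RhDBCb, which overlapped (0.39, SE 0.12, adjusted p = 0.0198).

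Lower in RhM22 before treatment were the lipid hydrolases SMPD1, PPT1 and ASAH1 and the glycosidases and sulfatases GALNS, HEXA and ARSA. GALNS, which desulfates keratan sulfate, had 41.1, 42.4, 49.2 and 46.5 CPM in RhM22 and 120.1, 85.8, 96.7 and 83.3 CPM in RhDBCb before treatment (-1.10, SE 0.18, adjusted p = 3.45e-04). HEXA, a subunit of beta-hexosaminidase A, had 75.4, 59.9, 64.5 and 53.7 CPM in RhM22 and 143, 118, 90.6 and 85.4 CPM in RhDBCb (-0.77, SE 0.14, adjusted p = 6.49e-04). ARSA had -0.86 (SE 0.18, adjusted p = 0.0022), and for GALNS, HEXA and ARSA no RhM22 library reached the RhDBCb range. PPT1, which removes fatty acids from proteins, had 158, 203, 197 and 251 CPM in RhM22 and 361, 397, 371 and 408 CPM in RhDBCb (-0.94, SE 0.12, adjusted p = 7.04e-05). ASAH1, the acid ceramidase, had 20.4, 16.1, 21.2 and 18 CPM in RhM22 and 31.3, 24.7, 24.0 and 31.7 CPM in RhDBCb (-0.57, SE 0.15, adjusted p = 0.00855), and SMPD1 had -0.95 (SE 0.24, adjusted p = 0.00798). PPT1, ASAH1 and SMPD1 did not overlap between the animals.

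The pump accessory protein ATP6AP1 had 171, 155, 147 and 215 CPM in RhM22 and 345, 360.1, 303 and 276 CPM in RhDBCb before treatment, with no overlap (-0.90, SE 0.16, adjusted p = 6.02e-04). MCOLN1, the lysosomal calcium channel, had 10.6, 9.79, 7.62 and 10.7 CPM in RhM22 and 16.5, 18.8, 17.0 and 13.8 CPM in RhDBCb (-0.76, SE 0.18, adjusted p = 0.00534), again with no overlap. CTSB had -0.89 (SE 0.14, adjusted p = 2.45e-04), CTSA -0.56 (SE 0.11, adjusted p = 0.00106), CD63 -0.48 (SE 0.15, adjusted p = 0.0233), LIPA -0.47 (SE 0.17, adjusted p = 0.0398) and LAMP1 -0.35 (SE 0.11, adjusted p = 0.0201). Of these 5, CTSB alone did not overlap between the animals. NPC2, STARD3 and TFEB had -0.46, -0.015 and -0.61 and did not pass.

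After treatment 3 of the 35 genes differed between the animals (8.57%), where 6.44% of all genes were called (3.29% higher and 3.15% lower), and all 3 were lower in RhM22. Here too each animal had 1 draw, with the same limit. CTSA had 407, 279, 225 and 143 CPM in RhM22 and 601, 436 and 281 CPM in RhDBCb after treatment (-0.83, SE 0.12, adjusted p = 0.00126). ARSA had 15.1, 6.05, 13.1 and 7.74 CPM in RhM22 and 21.7, 19 and 15.6 CPM in RhDBCb (-0.75, SE 0.20, adjusted p = 0.0382). PPT1 had 179, 208, 192 and 183 CPM in RhM22 and 227, 314 and 326 CPM in RhDBCb (-0.61, SE 0.13, adjusted p = 0.0181). ARSA and PPT1 did not overlap between the animals, and CTSA did, since the RhDBCb CD4 naive library lay at the level of RhM22 CD8 naive cells. The sterol egress genes, TFEB and LAMP1 had NPC1 0.33, NPC2 -0.095, LIPA -0.22, STARD3 0.23, TFEB -0.64 and LAMP1 -0.31, none called.

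Of the 112 further genes, 18 were higher and 35 lower in RhM22 before treatment, where 19.4% of all genes were higher and 18.3% lower. After treatment 4 of the 112 were higher and 6 lower, where 3.29% of all genes were higher and 3.15% lower. Before treatment ATP6V0A1 had 2.36 (SE 0.28, adjusted p = 4.80e-05), TFE3, a transcription factor related to TFEB, 1.70 (SE 0.20, adjusted p = 3.50e-05), and the sulfatase IDS 1.69 (SE 0.31, adjusted p = 9.20e-04). LAMTOR2 had -2.02 (SE 0.20, adjusted p = 1.32e-05), LAMTOR4 -1.73 (SE 0.18, adjusted p = 2.00e-05) and GNPTG, which helps tag hydrolases for the lysosome, -1.65 (SE 0.19, adjusted p = 3.57e-05). After treatment RRAGD had 1.29 (SE 0.24, adjusted p = 0.00832), TFE3 0.94 (SE 0.21, adjusted p = 0.0231), the membrane protein OSTM1 0.66 (SE 0.18, adjusted p = 0.0462), SORT1 -1.60 (SE 0.39, adjusted p = 0.0318), GNPTG -1.0 (SE 0.20, adjusted p = 0.0138) and LAMTOR5 -0.95 (SE 0.23, adjusted p = 0.0287).

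With 1 library left out, calls before treatment were lost as follows. ATP6V1H was lost without the CD8 memory library of RhM22 before, or the CD8 naive library of RhM22 before (adjusted p = 0.0154 to 0.0781). CD63 was lost without the CD8 memory library of RhM22 before, the CD4 memory libraries of RhM22 before or RhDBCb before, or the CD4 naive library of RhDBCb before (adjusted p = 0.00769 to 0.0936). LAMP1 was lost without the CD8 memory library of RhM22 before, the CD8 naive libraries of RhM22 before or RhDBCb before, or the CD4 memory library of RhM22 before (adjusted p = 0.0184 to 0.07). LIPA was lost without the CD8 memory libraries of RhM22 before or RhDBCb before, the CD8 naive libraries of RhM22 before or RhDBCb before, the CD4 memory library of RhM22 after, or the CD4 naive libraries of RhM22 after, RhM22 before or RhDBCb before (adjusted p = 0.0138 to 0.148). NPC1 was lost without the CD8 memory libraries of RhM22 before or RhDBCb before, the CD8 naive library of RhDBCb before, the CD4 memory libraries of RhM22 before or RhDBCb before, or the CD4 naive libraries of RhM22 before or RhDBCb before (adjusted p = 0.0201 to 0.133). MANBA was lost without the CD8 naive libraries of RhM22 before or RhDBCb before, the CD4 memory libraries of RhM22 before or RhDBCb before, or the CD4 naive library of RhDBCb before (adjusted p = 0.00532 to 0.0782). The other 15 passed in all 15 fits. After treatment PPT1 was lost without the CD4 memory libraries of RhM22 after or RhDBCb after, or the CD4 naive libraries of RhM22 after or RhDBCb after (adjusted p = 0.0103 to 0.098), ARSA was lost without the CD8 naive libraries of RhM22 after or RhM22 before, any CD4 memory library, or the CD4 naive libraries of RhM22 after or RhDBCb after (adjusted p = 0.0228 to 0.192) and CTSA passed in all 15 fits (adjusted p = 8.21e-04 to 0.0165). The gene models of NPC1, MANBA, CTSA and CTSB span 3.05, 1.69, 2.67 and 2.55 times the RefSeq gene. The summed level of the platelet markers given above separated the animals before treatment too. Singly, PPBP, PF4, F13A1 and GP9 did so, and the other platelet markers overlapped.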

How the data were processed

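RNA-seq libraries were made with SMART-Seq v4 from polyadenylated RNA, per the labels, which does not keep strand, so reads of overlapping genes cannot be told apart. Named in the submitters' processing notes are RSEM 1.3.3, STAR 2.7.6a and cutadapt 1.18, with the builds Mmul_10 and rheMac10. The authors deposited RSEM expected counts, which were rounded to whole numbers (largest change of a total 26.1). The deposited FPKM values were read only for the length behind them: it came to a median of 0.933 of the RefSeq gene span, introns included (quartiles 0.906 and 0.993, 9881 genes).

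Computed here were CPM with TMM factors and edgeR 4.0.16 quasi-likelihood tests (R 4.3.3, limma 3.58.1, filterByExpr with a minimum count of 10) over 14814 genes. SE is the log2 fold change over the root of F. Treatment was tested over all subsets with subset and animal as terms, and within subsets with animal as a term. Subsets were compared within draws, and draws with subset as a term. Animals are named in the labels, and libraries of 1 animal deviated together (21 correlations, 0.195 to 0.501). Alternatives were DESeq2 1.42.0, other scalings, no filter, no animal or draw, parts of the libraries, and each library left out in turn. The scripts were tested on simulated counts.

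Members and lists were chosen with earlier results of these data known. The naming rule was every gene of the list, in full where called (up to 4 per direction and role), with NPC1, NPC2, LIPA, STARD3, TFEB and LAMP1 in each comparison, and up to 3 further pathway genes per direction among those called with a mean of at least 5 CPM. Changes within an animal are shown beside the test of their difference. Comparisons of the 2 animals before and after treatment were added after the data were seen. Values of 1 further pathway gene that the rule names are not reported here. Promoter and protein sequences were not analysed here.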

Additional observations from a re-analysis of the deposited data

Results flagged for a closer look

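Of the 35 lysosome and sterol trafficking genes, 4 changed differently in the 2 animals, by edgeR's test of the animal-by-time term with Benjamini-Hochberg adjustment, where 4.58% of all genes were called. Without 1 library the count ranged from 0 to 5, with LAMP2 passing in 4 and SMPD1 in 2 of 15 such fits. The change in RhM22 minus that in RhDBCb was -0.86 for LAMP2 on the log2 scale, -0.99 for GLA, -1.76 for ATP6V1A and 1.39 for SMPD1. For GLA, after lay below before in 4 of 4 RhM22 subsets and above it in 3 of 3 RhDBCb subsets. The step of CTSL from naive to memory cells differed between CD8 and CD4 cells by 2.27, and was larger in CD8 cells, a call made in 4 of 15 fits without 1 library.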

How the results depend on the processing

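No gene of the list changed direction where it was called. DESeq2 called 10 of the 35 genes for memory over naive in CD4 cells, 8 for CD8 over CD4 in memory cells, 4 for the change in RhDBCb, 2 for that in RhM22 and 7 between the animals after treatment. With library totals these were 2 for CD4 memory over naive, 5 for the change in RhDBCb, 5 between the animals after treatment and 0 for the difference of the memory steps. The paired analysis was the one reported; with no replicate block the calls were 0 for memory in CD4, 3 for memory in CD8, 1 and 1 for CD8 over CD4 in naive and memory cells, and 0 for the difference of the memory steps. In the same order they were 0, 2, 1, 0 and 0 among the before libraries and 0, 1, 1, 1 and 0 among the after libraries, which hold fewer samples. Leaving out 1 library gave 1 to 6 calls for memory in CD4, 4 to 9 for memory in CD8, 3 to 3 and 2 to 6 for CD8 over CD4 in naive and memory cells, and 0 to 1 for the difference of the memory steps. It gave 0 to 5 for the animal-by-time term, 1 to 2 and 0 to 0 for the changes in RhDBCb and RhM22, 16 to 22 and 1 to 9 between the animals before and after treatment, and 0 for treatment over all subsets and within each. The all-gene calls over the same fits ranged from 1052 to 2188 for memory in CD4, 1371 to 2658 for memory in CD8, 316 to 612 and 766 to 1392 for CD8 over CD4 in naive and memory cells, 0 to 42 for the difference of the memory steps, 99 to 1314 for the animal-by-time term, 225 to 2188 and 0 to 12 for the changes in RhDBCb and RhM22, and 4322 to 5733 and 215 to 2077 between the animals before and after treatment. Unless a value above shows otherwise, the cause was not tested. Over all genes, DESeq2 called 2671 for memory in CD4 cells against 1708 with edgeR, 1055 against 499 and 2065 against 1221 for CD8 over CD4 in naive and memory cells, 1698 against 679 for the animal-by-time term, 2515 against 1499 for RhDBCb, 233 against 9 for RhM22, 2188 against 954 between the animals after treatment, 244 against 13 for the difference of the memory steps, 9 against 0 for treatment in CD4 naive cells and 177 against 1 for treatment over all subsets. Without the block the all-gene calls were 480 for memory in CD4, 972 against 2448 for memory in CD8, 198 and 390 for CD8 over CD4 in naive and memory cells, 1 for the difference of the memory steps and 0 for treatment. In the order of the first 5 they were 141, 539, 109, 147 and 0 among the before libraries and 334, 308, 70, 213 and 0 among the after libraries. Library totals gave 8 genes for treatment, 7 for the difference of the memory steps and 2 for RhM22. For treatment 11 genes were called without the RhDBCb before libraries and 0 without the CD8 naive libraries, and for the difference of the memory steps 35 without the RhDBCb before libraries and 32 with no filter. Library totals moved the all-gene median by up to 0.118 (log2, change in RhDBCb). Low genes such as MANBA and CTSZ carry the widest errors.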

Other observations

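GUSB, beta-glucuronidase, had no row under its symbol, but the gene table paired 1 row without a symbol with that name. Its level ranged from 27.9 to 144 CPM over the 15 libraries. It was higher in CD8 memory than in CD8 naive cells, by 0.63 on the log2 scale (SE 0.20, adjusted p = 0.0439). It was lower in RhM22 than in RhDBCb, at -1.33 on the log2 scale (RhM22 minus RhDBCb) before treatment (adjusted p = 1.1e-04) and -0.80 after it (adjusted p = 0.0307). Over all subsets the change after treatment was -0.10 (adjusted p = 0.859). This gene was left out of all counts of the list.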
